A study of Mus musculus with 96 samples.

Results

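The light response of unsorted cortical nuclei was measured in 9 of the 96 libraries of this series, 4 from E1 Cre mice that saw light and 5 from E1 Cre mice that stayed in the dark. The libraries were found by their sample names in the table of counts. The mice of both groups were Igf1-E1 fl/fl and carried VIP flp/wt. In this line E1, an enhancer of Igf1 (insulin-like growth factor 1), is flanked by the sites that the recombinase Cre cuts, and the recombinase Flp is made in VIP cells, the cortical interneurons that make vasoactive intestinal peptide. All of them received the virus AAV-Syn1-fDIO-mScarlet-KASH-2a-Cre in the visual cortex at postnatal day 55 to 60. Its fDIO cassette is turned on by Flp, so Cre is expected in VIP cells alone, under the neuronal Syn1 promoter, and the other cells of a total library carry the uncut enhancer. Dark housing began 3 days after the injection and lasted 10 to 12 days. The light group was then exposed to light for 1 h (3 females and 1 male), and the dark group was not (2 females and 3 males). Each library was made from 50 to 100 nuclei sorted from frozen cortex, the total nuclei of the labels. The 87 other libraries are VIP nuclei of mice with these labels, and VIP and total nuclei of mice of this line with dCre, the inactive form of Cre, and of the lines E23 and E123 with either virus. They are used here only to set the light response beside that of other mice and of VIP nuclei.

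When light falls on the eyes after days of darkness, neurons of the visual cortex fire, calcium enters them, and kinases turn on transcription factors that wait on the DNA. The first genes to respond are the immediate-early genes, many of which encode transcription factors of the Fos, Jun, Egr and Nr4a families. These act on later genes, the effectors, whose products are secreted, sit at synapses or damp the signal. In nuclei, much of the RNA is still being made or spliced, so a gene that has just been turned on can be read there early.

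The 9 libraries held 3808134 to 8972526 counts on genes and 19448 to 22013 detected genes. The chemistry does not mark the strand, so overlapping genes cannot be told apart. No pair of libraries within a group was a duplicate (16 pairs compared), and the levels of sex-linked genes matched the labelled sex in 9 of 9. The markers of excitatory neurons were present in every library, at a summed level of 7793 to 10158 CPM (counts scaled to a common library size) in light and 7749 to 10118 CPM in dark, as were those of GABAergic neurons, at 256 to 1102 CPM in light and 531 to 1099 CPM in dark. Oligodendrocyte, astrocyte and microglial markers were also present, and endothelial and mural markers were low in 8 of the 9 libraries (8.35 to 27.8 CPM) and higher in light replicate 3 (151 CPM). That mixture is what total nuclei of cortex hold. In such pools, fewer cells of a type and less RNA per cell cannot be told apart. The sample names number the libraries as biological replicates (BioRep), and both sexes occur in each group. The labels do not say outright that each library came from a separate mouse. The p-values therefore measure only the spread between libraries, which may in part be technical.

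After 1 h of light, 26 genes rose and 1 fell in the total nuclei of E1 Cre mice. Of 21213 genes tested, 0.123% rose and 0.00471% fell at an adjusted p under 0.05 in edgeR's quasi-likelihood test, which compared 4 light with 5 dark libraries and took the spread between replicates from all 48 total-nuclei libraries. The response leaned to one side only among the strongest genes: at an unadjusted p under 0.05, 774 genes were higher (3.65%) and 839 lower (3.96%), and the median log2 fold change of all genes tested was -0.01. The raised genes had a median log2 fold change of 1.54, and 7 of them exceeded 2. In all 26 raised genes the lowest light library stood above the highest dark library, by 1.00-fold in Nrd1 to 2.79-fold in Nr4a1. This was so for 1.44% of all genes tested, and the reverse for 1.16%. The 26 were chosen by a test on these same libraries, which favours such a separation, so it adds no support to the calls. Their mean level in dark ran from 3.74 CPM in Fosl2 to 461 CPM in Ntrk2. They include transcription factors, the kinase gene Sik2, the phosphatase gene Dusp14, a neurotrophin receptor, a prohormone convertase and the host transcripts of neuronal microRNAs.

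The count depends on single libraries. It was 7 without light replicate 1, 12 without dark replicate 5, 13 without dark replicate 1, and 14 without either light replicate 3 or dark replicate 4, while leaving out any of the other 4 libraries gave 18 to 28 calls. The 7 genes that passed with each of the 9 libraries left out in turn were Nr4a1, Per1, Sik2, Pcsk1, Ntrk2, Fmnl1 and Fosl2, and these carry the description that follows. Each of the other 20 called genes missed the threshold without at least 1 library. Their direction did not change in any alternative tried. DESeq2 called 78 genes, 56 higher and 22 lower, all 27 of the present ones among them.

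**Figure D1:**
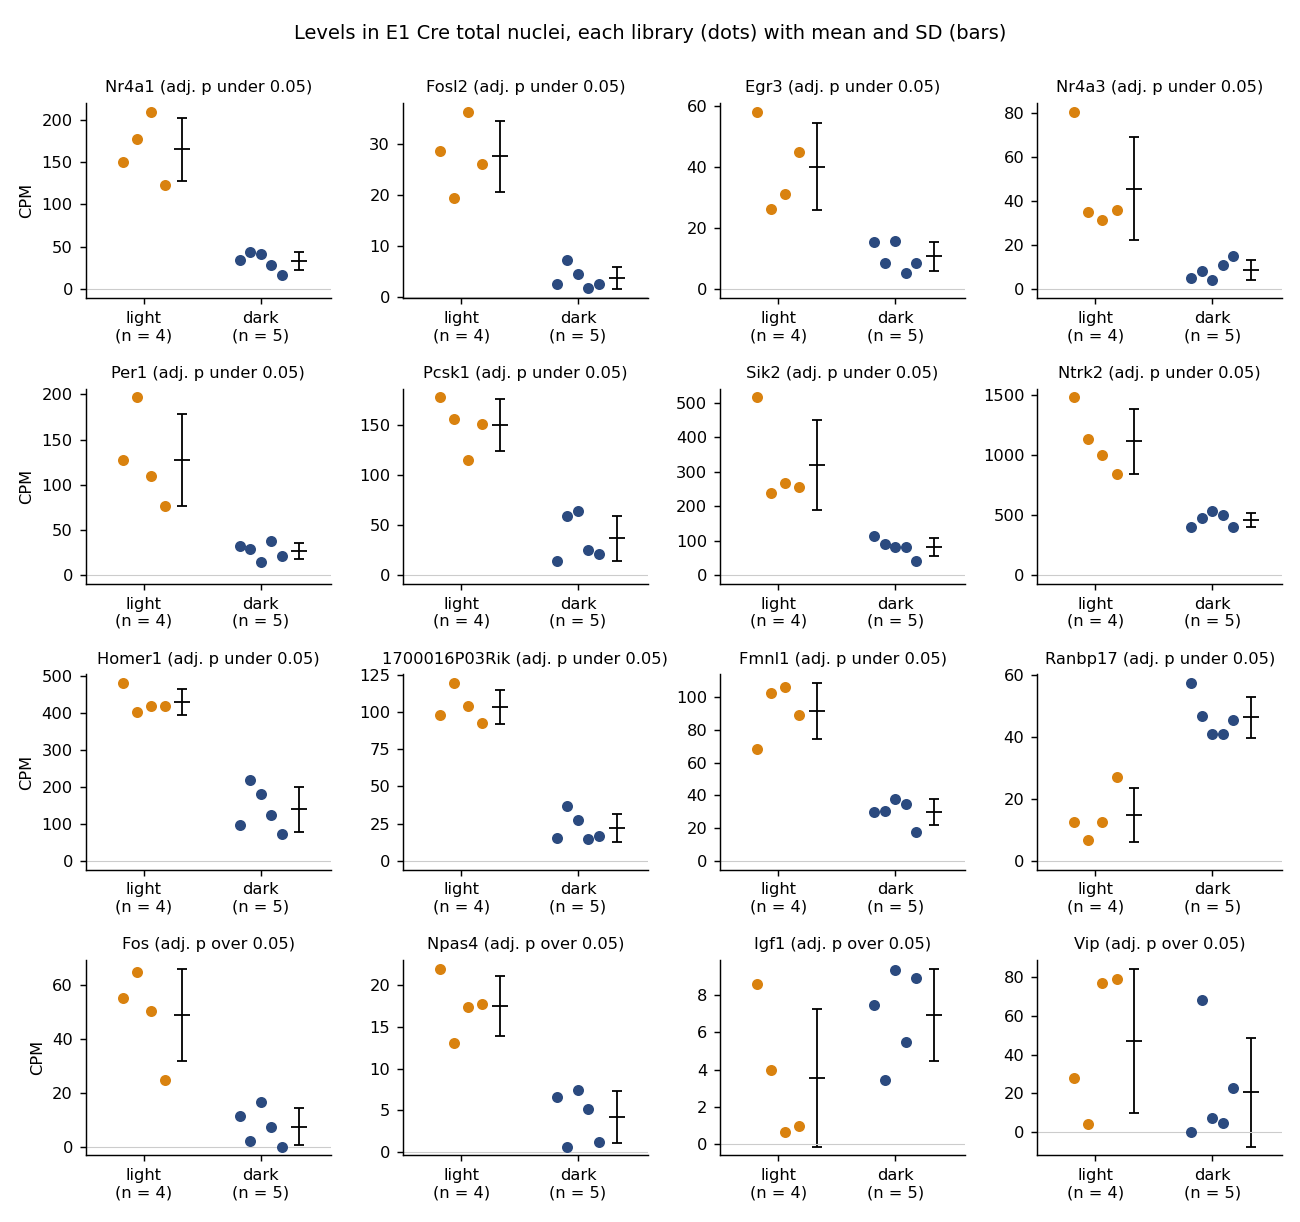
Levels of 16 genes in CPM (vertical axes, linear) in each library of E1 Cre total nuclei, with 4 light libraries left and 5 dark libraries right in each panel and bars for the mean and SD. In the 12 called genes the groups do not overlap, Fos and Npas4 also do not overlap but miss the threshold, and Igf1 and Vip overlap.

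Among the transcription factors, Nr4a1 had the smallest p of all genes. It encodes an orphan nuclear receptor and is a classical immediate-early gene. Its level was 150, 178, 209 and 122.9 CPM in the light libraries 1 to 4, against 34.5, 44.1, 41.3, 29.2 and 17.0 CPM in the dark libraries 1 to 5. The lowest light library stood 2.79-fold above the highest dark one. The log2 fold change was 2.31 ± 0.29 (SE, adjusted p 4.91e-06), and the adjusted p stayed at or under 0.000115 whichever library was left out. Its paralog Nr4a3 had 80.7, 35.1, 31.4 and 36.1 CPM in light and 5.0, 8.42, 4.36, 11 and 15.0 CPM in dark. Light replicate 1 stood well above the other 3 light libraries, which were still all above the dark ones. The log2 fold change was 2.41 ± 0.53 (adjusted p 0.0361), and the call failed in 7 of the 9 fits that omit a library (adjusted p up to 0.309). The third member of the family, Nr4a2, did not pass (log2 fold change 1.59 ± 0.42, adjusted p 0.152): light replicate 4, at 18.9 CPM, lay within the dark range of 8.92 to 26 CPM.

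The 250 bases before the RefSeq starts of Nr4a1 and Nr4a3 are shown because each holds 4 copies of TGACG, the core of the cAMP response element, the motif that the calcium- and cAMP-responsive factor CREB binds. Capitals mark TGACG or, where it lies on the opposite strand, CGTCA, and each sequence reads 5′ to 3′ on its gene's strand, which is the plus strand of GRCm38.p6 for both (chr15:101266596-101266845 and chr4:48045055-48045304).
Nr4a1: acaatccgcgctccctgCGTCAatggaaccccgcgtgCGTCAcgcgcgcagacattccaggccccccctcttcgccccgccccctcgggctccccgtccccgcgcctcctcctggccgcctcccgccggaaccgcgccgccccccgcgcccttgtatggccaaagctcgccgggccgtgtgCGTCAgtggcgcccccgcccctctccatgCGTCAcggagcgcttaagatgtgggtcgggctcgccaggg
Nr4a3: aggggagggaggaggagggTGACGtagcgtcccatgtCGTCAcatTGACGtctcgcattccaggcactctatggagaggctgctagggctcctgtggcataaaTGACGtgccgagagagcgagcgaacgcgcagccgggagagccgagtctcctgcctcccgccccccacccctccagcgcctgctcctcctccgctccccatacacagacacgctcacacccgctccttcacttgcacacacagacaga
In Nr4a1 the copies begin 233, 213, 69 and 40 bases before the start, and in Nr4a3 231, 213, 205 and 147 bases before it. Of 32851 promoters of 300 bases (250 before and 50 after a RefSeq start), 20.8% hold TGACG on either strand and 0.231% hold 4 or more copies. This core motif was searched for after these sequences had been seen. A match of letters is a description and says nothing of what binds there in these nuclei.

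Fosl2, a subunit of the dimeric factor AP-1, had 28.7, 19.4, 36.4 and 26.1 CPM in light and 2.62, 7.27, 4.57, 1.76 and 2.49 CPM in dark. It had the largest log2 fold change of the called genes, 2.87 ± 0.53 (adjusted p 0.00602), from the lowest dark level. Egr3, a zinc-finger factor, had 58.1, 26.4, 31.2 and 45.0 CPM in light and 15.6, 8.59, 15.7, 5.29 and 8.73 CPM in dark, a log2 fold change of 1.88 ± 0.40 (adjusted p 0.0238), and the call failed in 5 of the 9 fits that omit a library (adjusted p up to 0.238). Per1, a repressor of the circadian clock that also responds acutely to neuronal activity, had 128, 196, 109 and 76.1 CPM in light and 32.5, 28.4, 14.8, 37.2 and 21.4 CPM in dark. Its groups were 2.04-fold apart at their nearest libraries, and its log2 fold change was 2.25 ± 0.32 (adjusted p 5.36e-05). Per1 was the only one of 19 clock genes that passed. The median log2 fold change of the clock list was 0.15.

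The immediate-early genes that are most often used to mark neuronal activity moved the same way and missed the threshold in the main edgeR fit. Fos, the founding AP-1 subunit, had 55.3, 65.0, 50.3 and 24.9 CPM in light and 11.3, 2.15, 16.5, 7.25 and 0 CPM in dark. A count of 0 in dark replicate 5 allows up to 0.622 CPM (3 counts, counting error only). The groups did not overlap, and the log2 fold change was 2.69 ± 0.65 (adjusted p 0.0972), with an adjusted p of 0.011 in DESeq2. Npas4, a neuron-specific factor that follows calcium entry, had 21.9, 13, 17.3 and 17.7 CPM in light and 6.54, 0.661, 7.44, 5.10 and 1.25 CPM in dark. These groups did not overlap either, and the log2 fold change was 2.03 ± 0.79 (adjusted p 0.497). Arc, which encodes a protein of the postsynapse, had 77.4, 239, 243 and 131 CPM in light and 45.8, 76.6, 45.3, 25.3 and 14.3 CPM in dark, where the nearest libraries are almost equal (log2 fold change 2.05 ± 0.53, adjusted p 0.144). Egr1 had 129, 191, 261 and 158 CPM in light and 91.3, 64.9, 81.1, 45.7 and 27.8 CPM in dark (1.57 ± 0.41, adjusted p 0.152). Arc and Egr1, like Fos, passed in DESeq2 and with no filter on low counts, and Npas4 passed in none of 17 alternatives. The SE of these genes was 0.41 to 0.79, against 0.29 for Nr4a1 and 0.53 for Fosl2, which passed. Their dark libraries differed several-fold among themselves, as did those of Pcsk1, which passed (14.2 to 63.7 CPM). Why these genes missed the threshold was not tested.

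Over the list of rapid immediate-early genes, 31 of 34 members were tested, 4 rose (Nr4a1, Nr4a3, Fosl2 and Egr3), against 0.123% of all genes, and none fell. Of the 31, 28 had a log2 fold change above 0, against 48.6% of all genes tested, and the median of the list was 1.59. In 15 of the 31, every light library stood above every dark one, against 1.44% of all genes. Among members that did not pass, Ccn1, a secreted matrix protein, had the largest estimate (3.84 ± 0.96, adjusted p 0.134), with 20.3, 90.7, 52.5 and 19.9 CPM in light and 6.90, 3.14, 3.51, 0.980 and 0.831 CPM in dark. The DNA-damage-inducible genes Gadd45b and Gadd45g had log2 fold changes of 2.18 ± 0.68 (adjusted p 0.278) and 1.86 ± 0.69 (adjusted p 0.463), with no overlap of the groups. Members close to 0 were the Ras-related GTPase Rheb (0.21 ± 0.24), Klf6 (-0.12 ± 0.42), Klf10 (0.21 ± 0.47) and Jun (0.51 ± 0.59). Atf3 was at 0 CPM in all but 1 library, dark replicate 1 with 7.85 CPM. The summed level of the list was 919 to 1339 CPM in light and 276 to 449 CPM in dark. This list and those below were chosen with earlier results of these data known.

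**Figure D2:**
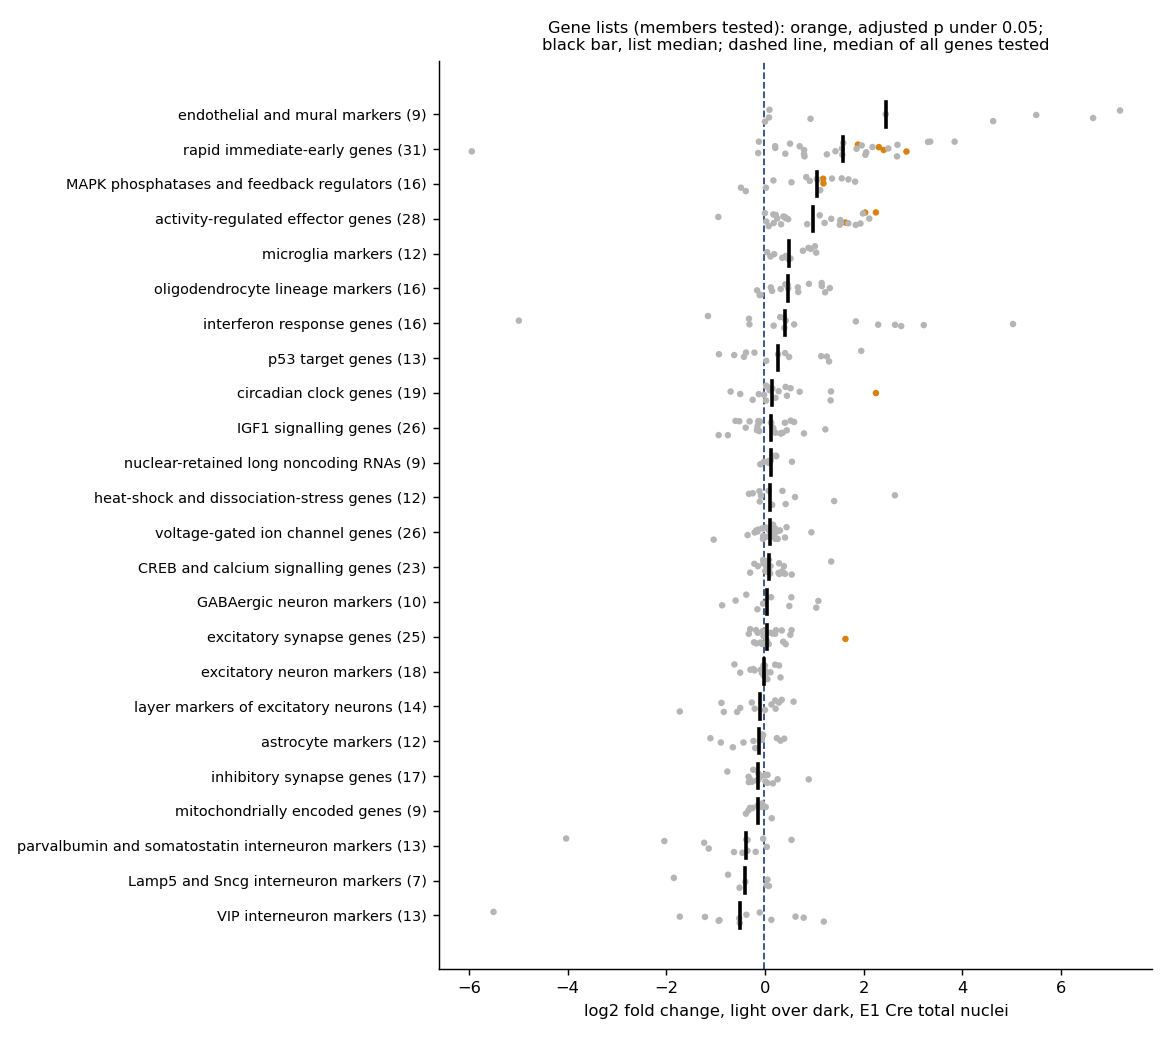
Log2 fold change, light over dark (horizontal axis), of each tested member of 24 gene lists in E1 Cre total nuclei, with orange dots for adjusted p under 0.05, black bars for list medians and a dashed line at the median of all genes tested. The immediate-early, MAPK feedback and effector lists have medians of 1.59, 1.06 and 0.98, and the endothelial and mural list, whose median is 2.45, has no called member and rests on 1 light library.

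Among the effector genes, 3 of 28 rose (0.123% of all genes did), none fell, and 26 of the 28 had a log2 fold change above 0 (48.6% of all genes), with a median of 0.98. Every light library was above every dark library in 6 of them, against 1.44% of all genes. Pcsk1, the convertase that cuts prohormones and neuropeptide precursors, had 177, 156, 115 and 151 CPM in light and 14.2, 58.6, 63.7, 24.9 and 21.4 CPM in dark, a log2 fold change of 2.03 ± 0.33 (adjusted p 0.000547). Homer1 encodes a scaffold of the postsynaptic density whose short form is made on activity. It had 481, 402, 419 and 420 CPM in light and 97.6, 219, 181, 125 and 72.5 CPM in dark. The light libraries were close to each other, with an SD of 34.5 around a mean of 431 CPM, and the dark ones varied by 43.3% (SD over mean). The log2 fold change was 1.63 ± 0.31 (adjusted p 0.00923), failing in 3 of the 9 fits that omit a library (adjusted p up to 0.0612). The counts are per gene and do not separate its short and long forms. Per1 is the third called member. Bdnf, the neurotrophin, did not pass (1.52 ± 0.40, adjusted p 0.152): light replicate 2, at 26 CPM, lay within the dark range of 12.7 to 29.5 CPM. The neuronal pentraxin Nptx2 (1.69 ± 0.63, adjusted p 0.463) and the CREB-family repressor gene Crem (1.34 ± 0.37, adjusted p 0.178) did not overlap between groups and did not pass. Plk2 (0.03 ± 0.33), Inhba (0.08 ± 0.34) and Vgf (0.17 ± 0.42) were near 0.

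The 250 bases before the start of Pcsk1 (GRCm38.p6, chr13:75089607-75089856, plus strand, 5′ to 3′) are shown because they hold the whole palindrome of the cAMP response element, TGACGTCA, as well as a separate TGACG. Capitals mark both.
Pcsk1: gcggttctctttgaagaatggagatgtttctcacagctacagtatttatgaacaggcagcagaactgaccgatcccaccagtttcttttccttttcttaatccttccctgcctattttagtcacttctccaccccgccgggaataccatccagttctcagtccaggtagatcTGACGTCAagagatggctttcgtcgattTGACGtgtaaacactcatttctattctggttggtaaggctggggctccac
The palindrome begins 78 bases before the start and the separate TGACG 50 bases before it. On both strands, TGACGTCA occurs in 1.79% of the 32851 promoters. Of the 26 raised genes, 23 are in the promoter table, with 39 starts, and 3 of these genes (Pcsk1, Btaf1 and Trak1) hold the palindrome at a start. TGACG (20.8% of promoters) occurs at 19 of the 39 starts, in 15 of the 23 genes. No share per gene over all genes is given for it, and it was searched for after sequences had been seen. The Egr motif (GCGTGGGCG or GCGGGGGCG, 3.47% of promoters) occurs in Nr4a1, Fosl2, Sik2 and Frmd6, the AP-1 motif TGANTCA (7.81%) in Mir670hg and Sgsm1, TATAAA (13.6%) in Mir670hg, and the CArG box (1.63%) in none. Several starts of a gene can share bases, so starts are not independent.

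The raised kinase was Sik2, a salt-inducible kinase that holds the coactivators of CREB in the cytoplasm. It had 516, 239, 269 and 255 CPM in light and 113, 91.3, 82.4, 82.5 and 41.1 CPM in dark. Light replicate 1 stood apart from the other 3, which were still 2.11-fold or more above the highest dark library, and the log2 fold change was 1.96 ± 0.29 (adjusted p 0.000104). One end of Sik2 overlaps Ppp2r1b on the opposite strand, and reads in the overlap cannot be assigned to either. Ppp2r1b was at 58.4 CPM in light and 23.8 CPM in dark (log2 fold change 1.30, adjusted p 0.205). Without light replicate 1 the log2 fold change of Sik2 was 1.63, and Sik2 passed there too. Its relative Sik1, an immediate-early gene, had 1.49 to 10.5 CPM in light and 0 to 4.04 CPM in dark and did not pass (2.68 ± 1.11, adjusted p 0.539). The receptor among the raised genes was Ntrk2, which encodes TrkB, the receptor of BDNF, and was the most abundant of them. It had 1478, 1134, 998 and 838 CPM in light and 400, 471, 536, 496 and 402 CPM in dark, a log2 fold change of 1.27 ± 0.21 (adjusted p 0.000637). The dark libraries varied by 12.9% (SD over mean) and the light ones by 24.5%.

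Of 16 MAPK phosphatases and feedback regulators, 2 rose (0.123% of all genes did), none fell, and 14 had a log2 fold change above 0 (48.6% of all genes), with a median of 1.06. Spred1, an inhibitor of Ras-MAPK signalling, had 165, 126, 138 and 135 CPM in light and 38.3, 97.8, 56.7, 69.8 and 49.7 CPM in dark (1.178 ± 0.26, adjusted p 0.0395). Dusp14, a MAPK phosphatase, had 69.4, 103, 75.2 and 93.8 CPM in light and 31.5, 38.8, 53.7, 35.1 and 28.3 CPM in dark (1.185 ± 0.27, adjusted p 0.0471). Neither call is firm, since each failed in 8 of the 9 fits that omit a library (adjusted p up to 0.238 for Spred1 and 0.218 for Dusp14). The call of Ranbp17, the gene that fell, failed as often. Dusp1, the phosphatase usually counted among the immediate-early genes, had 38.3, 107, 97.5 and 66.2 CPM in light and 53.7, 36.8, 14.7, 14.9 and 10.8 CPM in dark, where light replicate 1 lay below dark replicate 1 (1.56 ± 0.44, adjusted p 0.196). Dusp6 (1.12 ± 0.59, adjusted p 0.696) did not pass. Dusp8 (0.02 ± 0.37) and Dusp7 (-0.39 ± 0.54) were near or below 0.

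Both called long noncoding RNAs are hosts of microRNAs, the small RNAs that pair with messenger RNAs through their seed, bases 2 to 8. The transcript 1700016P03Rik lies on chromosome 11 (75172560 to 75177633, plus strand) and spans miR-212 and miR-132, which are classical products of CREB in neurons. It had 98.1, 119, 104 and 92.8 CPM in light and 15.5, 36.7, 27.2, 14.9 and 16.4 CPM in dark. The light libraries varied by only 11.1% (SD over mean), and all stood 2.53-fold or more above the highest dark library. The log2 fold change was 2.22 ± 0.45 (adjusted p 0.023), failing in 6 of the 9 fits that omit a library (adjusted p up to 0.116). Its end overlaps Ovca2 on the opposite strand, which was at 21.3 CPM in light and 22 CPM in dark (log2 fold change -0.04). Mir670hg lies on chromosome 2 (94160636 to 94264918, minus strand) and spans miR-129-2 and miR-670. It had 60.9, 32.5, 70.0 and 39.3 CPM in light and 5.83, 9.41, 21.6, 12.3 and 26 CPM in dark, a log2 fold change of 1.76 ± 0.36 (adjusted p 0.0229), failing in 5 of the 9 fits that omit a library (adjusted p up to 0.15). The mature RNAs themselves are not in these counts.

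The mature sequences of the microRNAs within both hosts are printed because 2 of them share a seed. They are from RefSeq (GRCm38.p6), read 5′ to 3′, and capitals mark the seed.
miR-212-3p: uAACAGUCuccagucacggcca
miR-132-3p: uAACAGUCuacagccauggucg
miR-212-5p: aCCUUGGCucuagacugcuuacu
miR-132-5p: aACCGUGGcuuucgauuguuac
miR-129-2-3p: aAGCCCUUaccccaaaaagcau
miR-129-5p: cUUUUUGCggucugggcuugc
miR-670-3p: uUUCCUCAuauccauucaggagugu
miR-670-5p: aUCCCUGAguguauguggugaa
The 3p arms of miR-212 and miR-132 carry the same seed, AACAGUC, and the other 6 printed sequences have a seed each.

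The other raised genes span cytoskeleton, transport, chromatin and metabolism, and 10 of the 26, with the 1700016P03Rik host, fall outside the rule for naming and were named after their values were seen. Fmnl1, a formin that assembles actin, had 68.2, 102, 106 and 89.1 CPM in light and 29.6, 30.2, 38.0, 34.5 and 17.5 CPM in dark (1.61 ± 0.27, adjusted p 0.00099), and kept its call with each library left out. Frmd6, a FERM-domain protein upstream of the Hippo pathway, had 250, 121, 132 and 135 CPM in light and 55.9, 69.7, 68.0, 65.5 and 33.9 CPM in dark (1.44 ± 0.28, adjusted p 0.00869), with light replicate 1 apart from the others and the call lost without it. Arhgef3, an activator of small GTPases, averaged 136 ± 38.8 CPM in light and 60.6 ± 20.4 CPM in dark (SD, n = 4 and 5). Its lowest light library, 84.3 CPM, was barely above its highest dark one, 82.0 CPM. Cpeb3, which controls the translation of synaptic messenger RNAs, averaged 439 ± 110 CPM in light and 218 ± 28.1 CPM in dark. Hdac5, a histone deacetylase that leaves the nucleus on activity, averaged 36.7 ± 6.05 CPM in light and 11.8 ± 4.36 CPM in dark. Maml3, a coactivator of Notch, averaged 198 ± 82.7 CPM in light and 75.5 ± 21.1 CPM in dark, and Btaf1, which removes TBP from promoters, 152 ± 34.2 CPM in light and 75.8 ± 13.4 CPM in dark. Nmnat2, an NAD-making enzyme that axons need to survive, averaged 303 ± 123.2 CPM in light and 133 ± 13.9 CPM in dark. Trak1, which ties mitochondria to kinesin, averaged 137 ± 26.7 CPM in light and 63.5 ± 11.2 CPM in dark. Sgsm1, Fam53b and the protease gene Nrd1 rose with log2 fold changes of 1.47 ± 0.33, 1.26 ± 0.27 and 1.05 ± 0.23. The last of the 26, Gm15425, is a processed pseudogene on the minus strand within Pde10a, a phosphodiesterase gene on the plus strand that narrowly missed the threshold (1.38 ± 0.32, adjusted p 0.0699), so its reads may belong to either. Ntrk2, Homer1, Cpeb3, Maml3 and Nmnat2 also overlap other tested genes, and the same limit holds for them. In Nmnat2 this is Gm28960, at 59.7 CPM in light and 28.5 CPM in dark. Of the 9 fits that omit a library, the call failed in 7 for Hdac5, Btaf1, Nrd1 and Sgsm1, and in 6 for Nmnat2. It failed in 5 for Trak1, Fam53b, Maml3 and Gm15425, in 3 for Arhgef3, and in 2 for Cpeb3 and Frmd6. The highest edgeR adjusted p among these fits was 0.342, in Maml3.

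The raised genes were long and mostly highest in the same library. Their median length was 64345 bases, against 18434 for all genes tested and 26110 for the protein-coding ones. Over 50 kb were 15 of the 26, against 5253 of the 21213 genes tested and 4664 of the 15135 protein-coding ones. Light replicate 1 was the highest light library for 17 of the 26, replicates 2 and 3 for 4 and 5, and replicate 4 for none. Light replicate 1 also had the highest length index of the 9 libraries (2.53, against 1.82 to 2.19 in the others), a measure of how far long genes stand above short ones within a library. Over the groups the length index was 2.06 ± 0.32 in light and 2.02 ± 0.15 in dark (SD, n = 4 and 5), and the difference of 0.0430 did not pass an exact two-sided permutation test (p = 0.817, the smallest possible being 0.00794). With the length index as a covariate, 65 genes passed, 62 higher and 3 lower, all 27 among them. The part of gene length in the calls was not tested beyond this fit. With sex as a covariate, 20 of the 26 raised genes passed and Ranbp17 did not.

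The single gene that fell was Ranbp17, which encodes a nuclear transport protein of the exportin family. It had 12.5, 6.63, 12.6 and 27.1 CPM in light and 57.5, 46.9, 41.1, 41.0 and 45.5 CPM in dark, so that every light library lay below every dark one. The log2 fold change was -1.67 ± 0.38 (adjusted p 0.0402), and the call was lost with each library but light replicate 4 left out (adjusted p up to 0.252). The next genes on this side did not pass. They include Hibch and Hibadh, enzymes of the breakdown of valine, at 4.99 to 15.7 CPM in light and 29.0 to 39.9 CPM in dark for Hibch (-1.48 ± 0.37, adjusted p 0.104), and 9.29 to 36.1 CPM in light and 48.4 to 58.7 CPM in dark for Hibadh (-1.25 ± 0.31, adjusted p 0.106). The adhesion molecule Cntn6 (-0.84 ± 0.21, adjusted p 0.106) and the potassium channel Kcnk2 (-1.55 ± 0.39, adjusted p 0.113) also had groups that did not overlap. DESeq2 called these 4 lower.

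Igf1, whose enhancer the line can lose, was low in total nuclei. It had 8.60, 4.0, 0.630 and 0.995 CPM in light and 7.50, 3.47, 9.36, 5.49 and 8.93 CPM in dark. In light replicates 3 and 4, 3 counts equal 0.472 and 0.745 CPM, so their values rest on few counts. The groups overlapped, as light replicates 1 and 2 lay within the dark range. The edgeR log2 fold change was -0.94 ± 1.11 (adjusted p 1.00). The mean log2(CPM + 1) was 1.82 ± 1.19 in light and 2.93 ± 0.50 in dark (SD, n = 4 and 5), a difference of -1.10 that did not pass an exact two-sided permutation test (p = 0.119, the smallest possible being 0.00794). Without light replicate 1, the highest light library, the difference was -1.58 (exact permutation p = 0.0357, the smallest possible being 0.0179). Light replicate 2 was still inside the dark range. With any other library left out, the exact permutation p was 0.0857 to 0.268. Vip varied widely between libraries, with 28.2, 4.0, 77.2 and 79.1 CPM in light and 0.119, 68.4, 7.23, 4.51 and 22.9 CPM in dark (1.19 ± 1.42, adjusted p 1.00). None of the 13 VIP interneuron markers and none of the 26 tested genes of IGF1 signalling passed, with medians of -0.51 and 0.12.

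**Figure D3:**
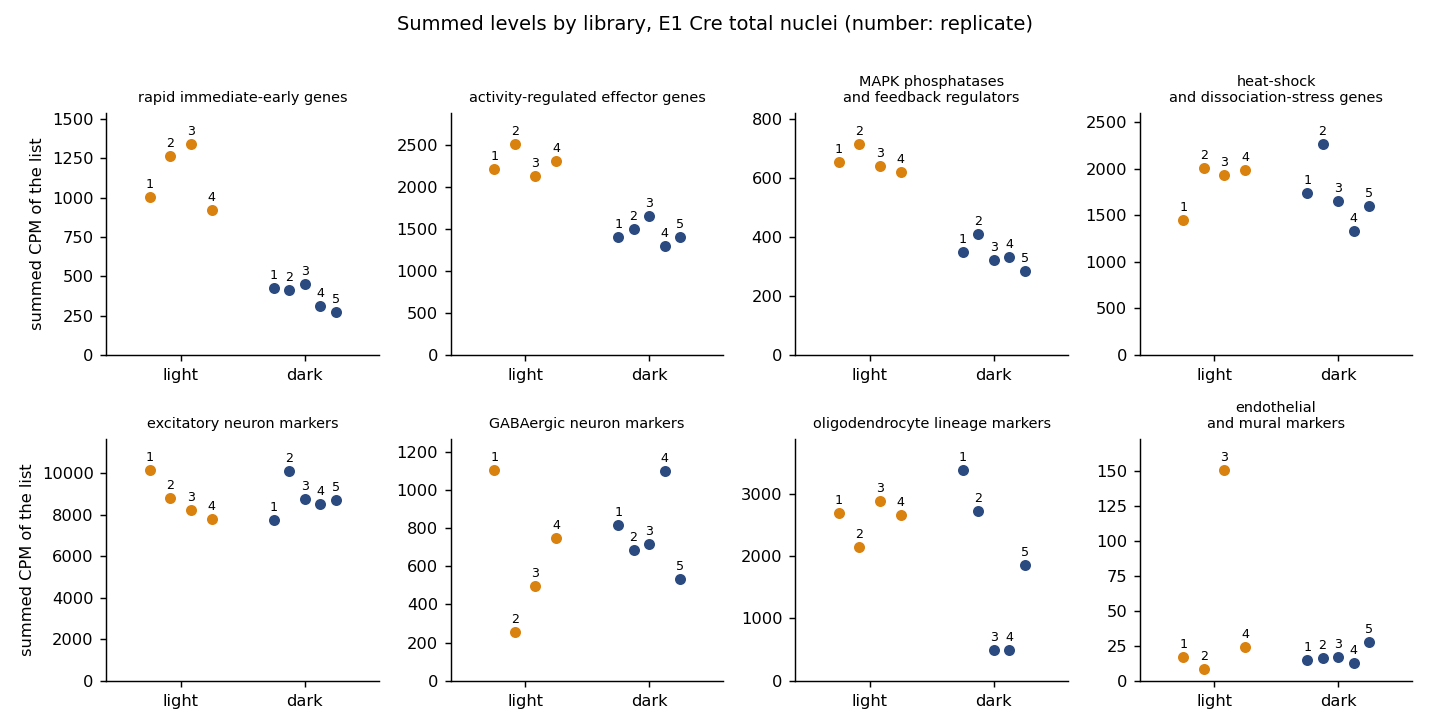
Summed CPM of 8 gene lists (vertical axes from 0) in each library of E1 Cre total nuclei, light left and dark right, numbered by replicate. Light lies above dark in the immediate-early, effector and MAPK feedback lists, while the groups overlap in the stress and cell-type lists, and light replicate 3 stands at 151 CPM in the endothelial and mural list.

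The summed levels of the 3 activity lists separated the groups, and those of the cell-type lists did not. The sums include the called genes, so this separation restates the calls in part. All lists were chosen with earlier results of these data known. The summed level of the effector list was 2131 to 2506 CPM in light and 1302 to 1653 CPM in dark, and that of the MAPK feedback list 619 to 713 CPM in light and 284 to 410 CPM in dark. No member passed in any of the 10 lists of cell-type and layer markers. The median log2 fold change was -0.03 for excitatory neuron markers, 0.04 for GABAergic markers, -0.13 for astrocyte markers, 0.47 for oligodendrocyte markers and 0.49 for microglial markers, whose 12 members were all above 0. Oligodendrocyte markers summed to 2138 to 2877 CPM in light and 492 to 3376 CPM in dark, with dark replicates 3 and 4 under 500 CPM. Microglial markers summed to 266 to 797 CPM in light and 202 to 497 CPM in dark. Endothelial and mural markers summed to 8.35 to 24.4 CPM in 3 light libraries, 151 CPM in light replicate 3 and 12.9 to 27.8 CPM in dark, and Cldn5, Cdh5 and Slco1a4 were at 0 in all 9. Heat-shock and dissociation-stress genes, which can rise while tissue is handled, summed to 1448 to 2003 CPM in light and 1332 to 2260 CPM in dark (median 0.11, 0 of 12 called). Mitochondrially encoded genes summed to 2495 to 3641 CPM in light and 2565 to 5767 CPM in dark (median -0.15). The part of these cell types in the response was not tested.

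In the lists of the signalling and synaptic machinery, few or no genes passed. Of 25 excitatory synapse genes only Homer1 passed (list median 0.04), and none of 17 inhibitory synapse genes (-0.13), 26 voltage-gated ion channels (0.11), 23 CREB and calcium signalling genes (0.08), 13 p53 targets (0.26), 16 interferon response genes (0.41) or 9 nuclear-retained long noncoding RNAs (0.12) passed. The same held for parvalbumin and somatostatin interneuron markers (-0.38), Lamp5 and Sncg interneuron markers (-0.40) and layer markers (-0.11).

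The 26 raised genes were then read in mice that share no library with E1 Cre. In E23 Cre total nuclei, 4 light against 4 dark libraries, 10 of the 26 passed as higher, against 0.123% of all genes, and all 26 had a log2 fold change above 0, against 45.6% of all genes. In E123 Cre total nuclei, 4 light against 3 dark, 4 of the 26 passed as higher (0.0471% of all genes, with 0.00943% lower) and all 26 were above 0 (50.6% of all genes). With the inactive virus, 12 of the 26 passed in E23 dCre (0.146%, with 0.033% lower) and 14 in E123 dCre (0.325%), and all 26 were above 0 in both (47.5% and 48.8% of all genes). Nr4a1 passed in all 4 of these comparisons, with log2 fold changes of 2.49 ± 0.32 in E23 Cre, 2.89 ± 0.37 in E123 Cre, 2.54 ± 0.32 in E23 dCre and 2.44 ± 0.32 in E123 dCre. Sik2, Pcsk1 and Homer1 passed in all but E123 Cre, where their log2 fold changes were 1.53, 1.42 and 1.30. Ntrk2 also passed in all 4, between 1.17 and 1.45. Within E23 Cre, Hdac5 had the smallest log2 fold change of the 26, 0.44 ± 0.37, against 1.64 ± 0.36 in E1 Cre. The smallest of the 26 was 0.32 in E123 Cre, 0.37 in E23 dCre and 0.48 in E123 dCre.

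Within line E1, the mice with dCre are the nearest control (5 light and 3 dark libraries). There 6 of the 26 passed, Nr4a1, Sik2, Pcsk1, Fmnl1, 1700016P03Rik and Dusp14, against 2.22% of all genes, and 19 were above 0, against 49% of all genes. Trak1, Nmnat2, Fam53b, Maml3, Hdac5, Nr4a3 and Sgsm1 had log2 fold changes of -0.26 to -0.02 in E1 dCre. In those mice dark replicates 1 and 2 stood apart, with length indices of 3.45 and 3.52, against 2.24 in dark replicate 3 and 1.92 to 2.26 in the 5 light libraries. Dark replicates 1 and 2 of E123 dCre were also high, at 3.81 and 3.48. Without these 2 libraries, which leaves 1 dark library that is assumed to vary like those of the other groups, all 26 were above 0 (55.4% of all genes) and none passed, and no gene at all did (0%). Nr4a3 was then at 2.91 ± 0.93 (adjusted p 0.912).

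**Figure D4:**
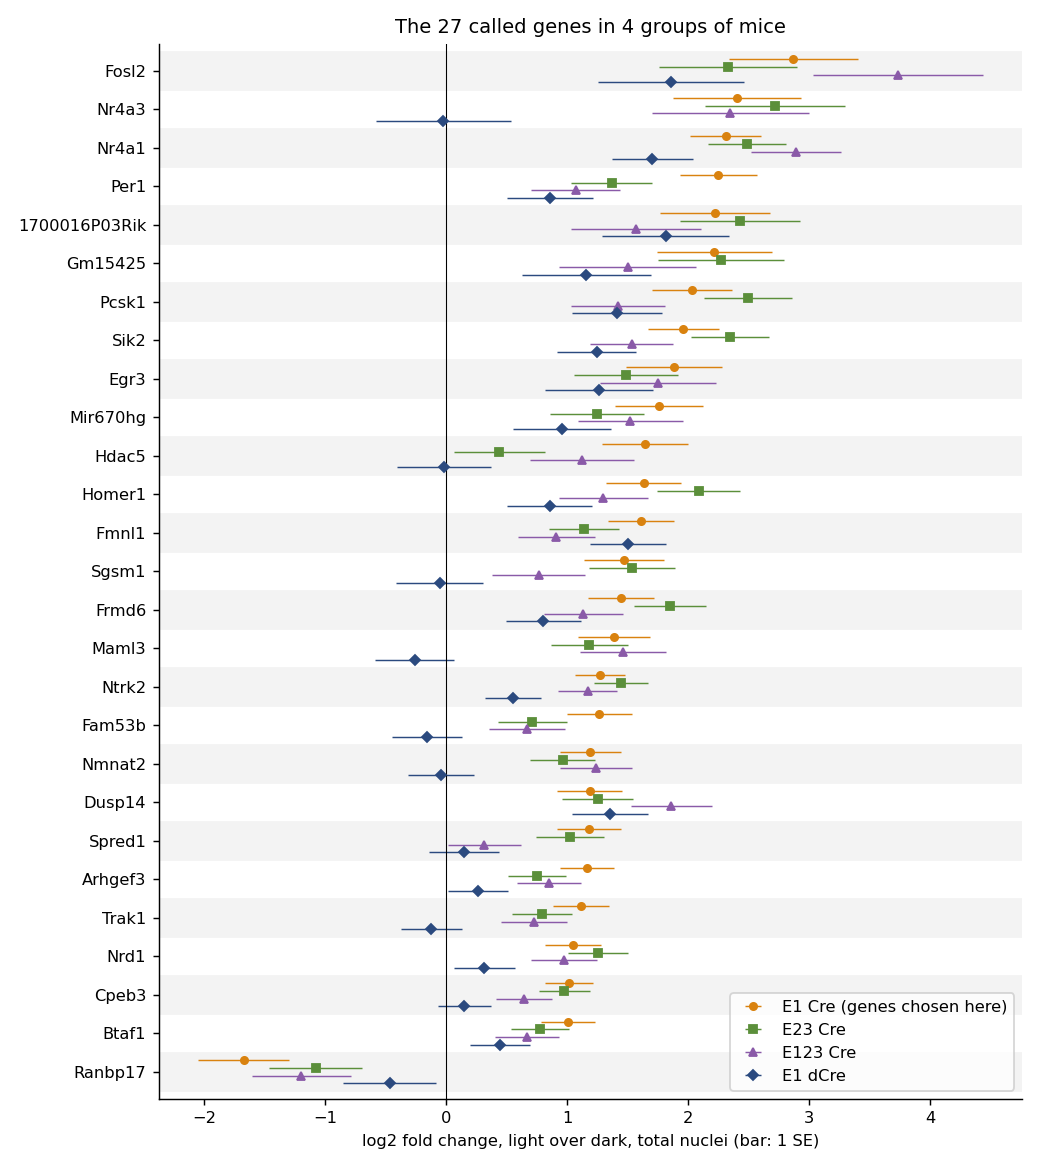
Log2 fold change, light over dark, in total nuclei (horizontal axis, bars for 1 SE) of the 27 genes called in E1 Cre mice, shown for E1 Cre, E23 Cre, E123 Cre and E1 dCre mice. The 26 raised genes lie right of 0 in E1 Cre, E23 Cre and E123 Cre mice, and 7 of them lie at or just left of 0 in E1 dCre mice, whose dark libraries include 2 that stand apart.

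The difference between the responses was tested itself. Between Cre and dCre mice of line E1, the light response differed in 6 genes of 21213, higher in 1 (0.00471%) and lower in 5 (0.0236%), and none of them is among the 26. Of the 26, 25 had a larger response with Cre, by a median of 0.83 on the log2 scale, a direction that choosing them in E1 Cre builds in, and the smallest adjusted p was 0.0871, in Maml3 (1.65 ± 0.44). At an unadjusted p under 0.05, 15.2% of all genes differed. The lower ones were Sar1b, a GTPase of vesicle budding (-2.49 ± 0.46), Rnf187, a ubiquitin ligase (-2.23 ± 0.43), Prps1, which makes the precursor of nucleotides (-3.04 ± 0.59), Atp5o, a subunit of ATP synthase whose symbol 2 identifiers carry (-2.48 ± 0.51), and a predicted gene. The light response of E1 Cre mice passed in none of these 4 named genes (adjusted p 0.858 to 1.00). Rnf187 had 107 ± 26.8 CPM in light and 115 ± 20.8 CPM in dark with Cre, and 107 ± 6.90 CPM in light and 24.7 ± 2.88 CPM in dark with dCre, so the libraries that stand out are the dark ones with dCre. Without dark replicates 1 and 2 of E1 dCre, which leaves 1 dark library with dCre, no gene passed (905 at an unadjusted p under 0.05). The log2 fold changes in E1 dCre mice were then 2.03 ± 0.54 for Rnf187, 3.12 ± 0.76 for Prps1, 1.61 ± 0.53 for Sar1b and 1.152 ± 0.50 for Atp5o. With all 3 dark libraries they were 2.12, 2.49, 2.08 and 2.25. The part of dark replicates 1 and 2 in the differences was not tested.

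Against the other Cre lines, no gene passed the edgeR test of the difference in light response. Between E1 Cre and E23 Cre the count was 0 in edgeR (0% called, 1095 genes or 5.16% at an unadjusted p under 0.05) and 4 in DESeq2. Between E1 Cre and E123 Cre it was 0 in edgeR (0% called, 1425 genes or 6.72% unadjusted) and 2 in DESeq2. For the 26 raised genes the median difference, E1 Cre minus the other line, was 0.10 for E23 Cre (14 of 26 above 0) and 0.34 for E123 Cre (21 of 26 above 0). These differences carry the same built-in direction. Per1 had the 2.25 ± 0.32 given above in E1 Cre against 1.37 ± 0.34 in E23 Cre and 1.07 ± 0.37 in E123 Cre, and these differences did not pass (adjusted p 1.00 and 0.632).

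VIP nuclei, the cells that can carry Cre, were sorted from mice with the same labels and replicate numbers (4 light and 5 dark libraries). The labels do not say whether same-numbered total and VIP libraries came from the same mouse, so the responses may not be independent. In VIP nuclei 2 of the 26 passed, Nr4a1 (2.55 ± 0.36, adjusted p 7.58e-05) and Fosl2 (3.38 ± 0.54, adjusted p 0.00101), against 0.0146% of all genes. Of the 26, 25 were above 0, against 47.8% of all genes. Nmnat2, the exception, was at -0.04 ± 0.26 in VIP nuclei and 1.19 ± 0.25 in total nuclei. Pcsk1 was at 0.59 ± 0.31 in VIP nuclei and 2.03 ± 0.33 in total nuclei. Neither difference passed (adjusted p 0.415 and 0.417 in the fit of all 96 libraries), nor did that of any gene (0 of 22926 in edgeR, 1498 or 6.53% at an unadjusted p under 0.05, and 28 in DESeq2). Igf1 was at 0.28 ± 0.22 in VIP nuclei (adjusted p 0.965).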

How the data were processed

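The deposited table holds raw counts of reads per gene in each library, as the authors made it. Per the submitters' processing notes, the tools were cutadapt 1.18, STAR 2.5.3a and HOMER 4.9.1 with mouse build mm10. The gene annotation and the strand setting are not given in the sources used here. Per the labels' protocols, libraries came from 50 to 100 nuclei with poly-T priming, 17 PCR cycles, and molecular identifiers are not mentioned, so intervals and limits cover counting error only. Of 55335 gene identifiers, 55154 were matched to GENCODE M21, and the other 181 held 0.0225% of counts.

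Light and dark were compared with edgeR 4.0.16 (R 4.3.3): TMM scaling, filterByExpr, 1 coefficient per group over the 48 total-nuclei libraries and the robust quasi-likelihood F test, with Benjamini-Hochberg adjustment over all 21213 genes tested and a threshold of 0.05. VIP nuclei were fitted apart (20585 genes), and total minus VIP in all 96 libraries (22926 genes). The SE is the size of the log2 fold change over the square root of F. CPM values use TMM-scaled library sizes. Igf1 and the length index were compared with exact permutation tests. The length index is the difference in mean log2(CPM + 1) between the protein-coding genes in the longest and the shortest 0.25 by length. The fits were tested on simulated data. Alternatives were DESeq2 1.42.0, other scalings, no filter, covariates, a replicate block and leaving out libraries.

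The members and gene lists were chosen with earlier results of these data known. Named were Igf1, Vip, Npas4 and Fos, at most 12 genes per direction with the smallest p among those that passed, up to 6 passing members of each list, and, where fewer than 5 passed in a direction, the 5 with the smallest p. Predicted genes were passed over. Other genes were named after their values were seen. The gene with the larger response in Cre than in dCre mice is not reported here.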

Additional observations from a re-analysis of the deposited data

Results flagged for a closer look

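In E1 Cre total nuclei, 7 of 132 groups of values tested held 1 library far from the rest, and chance flags about 1 in 20. In light replicate 1, Sik2 was at 516 CPM, against 239 to 269 CPM in the other light libraries. Frmd6 was at 250 CPM there, against 121 to 135 CPM, and Nr4a3 at 80.7 CPM, against 31.4 to 36.1 CPM. In the same library excitatory synapse genes summed to 24620 CPM, against 18719 to 19630 CPM, and heat-shock and dissociation-stress genes to 1448 CPM, against 1936 to 2003 CPM. Endothelial and mural markers summed to 151 CPM in light replicate 3, against 8.35 to 24.4 CPM in the other light libraries. Mitochondrially encoded genes summed to 5767 CPM in dark replicate 1, against 2565 to 3351 CPM in the other dark libraries.

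The light response differed between Cre and dCre mice of line E1, in edgeR's test of the difference, by -2.49 in Sar1b, -2.23 in Rnf187, -3.04 in Prps1 and -2.48 in Atp5o on the log2 scale. None of these passed without dark replicates 1 and 2 of E1 dCre, a fit with 1 dark library in that group, where the response of E1 dCre mice was still 2.03 in Rnf187, 3.12 in Prps1, 1.61 in Sar1b and 1.152 in Atp5o.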

How the results depend on the processing

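The light response of 27 genes became 78 in DESeq2 (56 higher, 22 lower), 65 with the length index as a covariate, 109 with no filter on low counts (90 higher, 19 lower), and 27 with DESeq2's size factors. With only the 9 libraries of the contrast it was also 27, of which 16 were shared. Leaving out 1 library gave 7 to 28. Nr4a1 and Sik2 passed in all 17 alternatives, and none of the 27 genes changed direction in any of them. The replicate block left 3 calls (Nr4a1, Sik2 and 1700016P03Rik). Same-numbered light and dark libraries correlated at -0.08 to -0.003, and 0 of 4 correlated best with its own number. Same-numbered total and VIP libraries correlated at -0.02 to 0.12 in light and -0.05 to 0.05 in dark. Of these, 3 of 4 in light and 3 of 5 in dark correlated best with their own number. Correlations this low cannot show whether same-numbered libraries share more than the number.

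For Cre minus dCre in line E1, the 6 genes became 270 in DESeq2, 604 with no filter, 1 with only the libraries of the contrast, 1 with the replicate block, and 0 with the length index or sex as a covariate, or without dark replicates 1 and 2 of E1 dCre, a setting chosen after seeing the data. Leaving out 1 library gave 0 to 12. The 0 calls against E23 Cre became 4 in DESeq2 and 56 with no filter, and those against E123 Cre 2 and 41. Total minus VIP gave 28 in DESeq2 and 0 otherwise, with the replicate block too. The Igf1 difference ran from -1.58 to -0.73 with 1 library left out, and that of the length index from -0.11 to 0.12. The causes of these changes were not tested. With 4 and 5 libraries, Fos and Npas4 had SEs of 0.65 and 0.79, against 0.29 for Nr4a1 and 0.53 for Fosl2, which both passed.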
